A study of Mus musculus with 14 samples.

Results

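The interferon-γ GTPase and MHC class I genes are a set of 34 mouse genes named by symbol, and all 34 were found by Entrez identifier among the 27179 genes of the count table. They comprise 3 regulators of transcription, 8 guanylate-binding protein genes (GBP), 7 immunity-related GTPase genes (IRG), 5 proteasome subunit genes, 3 genes for peptide transport and loading, 4 genes for chains of class I molecules, and 3 chemokine genes with the ubiquitin-like modifier gene Ubd. The libraries hold bulk RNA of CD4 T cells from C57BL/6 mice, which had been isolated as naive cells and activated in culture on plate-bound antibodies to CD3 and CD28. Tfh5 names cells differentiated toward follicular helper T cells with 5 ng/ml TGF-β (5 libraries). TfhA names cells differentiated toward the same fate while an anti-TGF-β antibody was present (4 libraries, numbered 1, 2, 4 and 5). Th1 names cells cultured under T helper type 1 conditions (5 libraries). All groups share the strain, the antibody stimulation, a culture of 3.5 days, the sort into Trizol LS and library preparation from 100 ng of RNA with a Lexogen SENSE mRNA kit. The other cytokines and antibodies of each culture, and whether the libraries came from separate animals or cultures, were not stated in the labels, so p-values measure only the spread between these libraries.

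Interferon-γ binds a receptor made of the Ifngr1 and Ifngr2 chains, and the kinases Jak1 and Jak2 then pass the signal on to GAS sites in gene promoters. Irf1 is among the first genes induced, and Irf1 in turn binds the interferon-stimulated response element (ISRE), so that many targets receive both signals. The GTPases among these targets act on the vacuoles and membranes of intracellular pathogens. The proteasome, transporter and class I genes cut cytosolic proteins, move the peptides into the endoplasmic reticulum and display them to CD8 T cells. In CD4 T cells, interferon-γ is the signature product of the Th1 state and also acts on the cells that make it, while TGF-β is known as a restraint on that state.

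Levels are CPM, counts scaled to a common library size with TMM, from library totals of 9766313 to 13316633 counts in Tfh5, 8805921 to 13027721 in TfhA and 13390058 to 16108059 in Th1. Log2 fold changes are given ± SE from one edgeR quasi-likelihood fit over 13075 genes, with p-values adjusted over all of them (Benjamini-Hochberg, two-sided), and a gene was called at an adjusted p under 0.05. Summed CD4 T cell markers reached 6925 to 7282 CPM in Tfh5, 5126 to 5907 CPM in TfhA and 4894 to 5338 CPM in Th1, with none of the 8 markers at 0 in any group. All 4 follicular helper markers (Bcl6, Cxcr5, Pdcd1 and Il21) were called higher in Tfh5 than in TfhA. For TfhA minus Th1, 1 of them (Il21) was higher and 3 were not called. All 4 Th1 markers (Tbx21, Ifng, Cxcr3 and Il12rb2) were lower in Tfh5 than in TfhA. For TfhA minus Th1, 3 of these were lower and 1 (Cxcr3) higher. The name TfhA thus stands for the culture. Mitochondrial genes took 7.29% to 8.54% of counts in Tfh5, 4.07% to 7.01% in TfhA and 4.46% to 6.56% in Th1. The summed level of 12 monocyte, macrophage and dendritic cell markers was 12.6 to 19.4 CPM in Tfh5, 71.8 to 134 CPM in TfhA and 248 to 312 CPM in Th1. Most of that sum was Cd74 and H2-Ab1, with means of 6.84 and 3.93 CPM in Tfh5, 60.5 and 25.6 CPM in TfhA and 175 and 75.9 CPM in Th1. Of the 7 markers tested, 6 were called lower and 1 neither for Tfh5 minus TfhA, and 2 lower (Cd74 and H2-Ab1), 2 higher (H2-Aa at 4.23 ± 0.37 and Itgam at 3.62 ± 0.58) and 3 neither for TfhA minus Th1. Over all genes, 30.1% were lower and 27.5% higher for Tfh5 minus TfhA, and 21.6% lower and 23.1% higher for TfhA minus Th1. Of the 12 markers Lyz2, Adgre1 and H2-Aa had no count in Tfh5, and Lyz2 and Adgre1 none in TfhA. In Th1, Itgax and Adgre1 had none, and Lyz2 had 1 count. The 7 B cell markers summed to 0.971 to 3.05 CPM in Tfh5, 18.3 to 28.6 CPM in TfhA and 25.6 to 33.9 CPM in Th1, with Pax5 at 0 in Th1. The 6 CD8 T and NK cell markers summed to 66.6 to 112, 62.5 to 90.8 and 56.4 to 98.7 CPM in that order. Trdc, a γδ T cell marker, was highest in TfhA, with 6.58 to 14.4, 32.8 to 79.2 and 4.01 to 7.84 CPM. The 7 granulocyte and mast cell markers, almost all Ly6g, were lowest in TfhA, with 52.8 to 120, 22.7 to 30.8 and 120 to 178 CPM. The part of these other markers in the results on the members was not tested. In bulk samples, fewer cells of a type and less RNA per cell cannot be told apart.

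Most members were lowest in Tfh5, intermediate in TfhA and highest in Th1. Of the 34 members, 33 passed the filter on low counts, and Cxcl9 did not. In the comparison of Tfh5 with TfhA, which sets TGF-β against its blockade, 26 of the 33 were called lower in Tfh5, 3 higher and 4 neither. Over all tested genes, 30.1% were called lower and 27.5% higher in this comparison. The median log2 fold change was -0.98 over the members and -0.0139 over all genes, and 15 members were lower by at least 2-fold, against 13.1% of all genes. In the comparison of TfhA with Th1, 28 members were called lower in TfhA, none higher and 5 neither, where 21.6% of all genes were called lower and 23.1% higher. The median there was -0.96 for the members and 0.0264 for all genes, with 15 members lower by at least 2-fold against 8.26% of all genes. Between Tfh5 and Th1, 30 members were called lower in Tfh5, 1 higher and 2 neither, where 33.0% of all genes were called lower and 31.5% higher. The median was -2.18 for the members and -0.0148 for all genes, and 28 members were lower by at least 2-fold, against 15.2% of all genes. These 3 comparisons share libraries, so they are not separate lines of evidence.

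**Figure D1:**
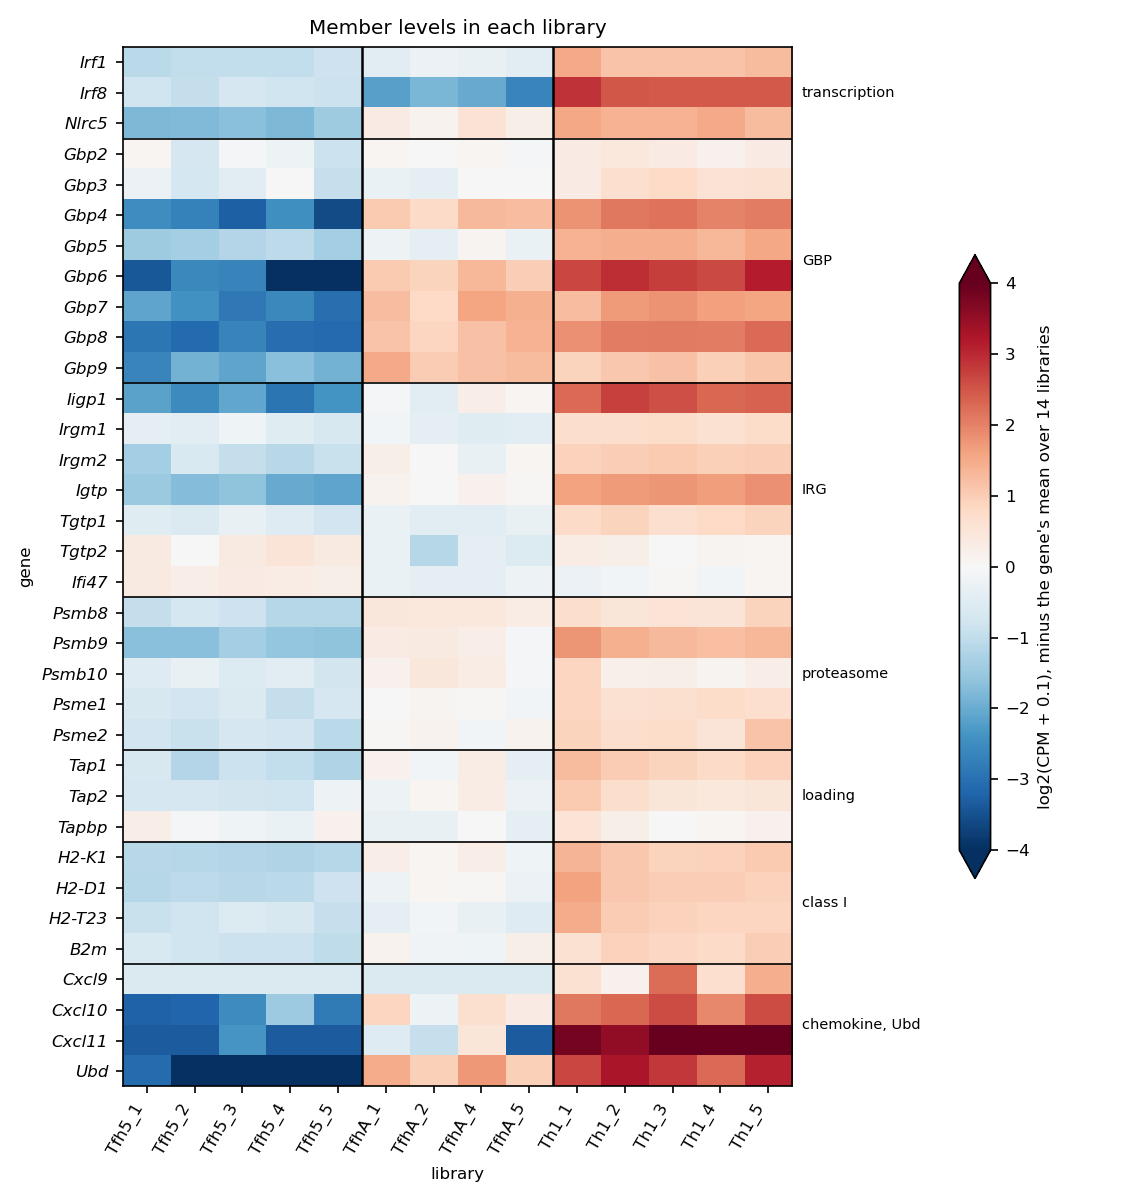
Level of each of the 34 members (rows, grouped by role) in each of the 14 libraries (columns, Tfh5 left, TfhA middle, Th1 right), as log2(CPM + 0.1) minus the gene's mean over the libraries, with colours saturating at 4 log2 units either way. Most rows run blue, pale and red across the groups, while Irf8 is lowest in TfhA and Tgtp2 and Ifi47 are not lowest in Tfh5.

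A stepwise order was the commonest pattern, and whether the steps of one gene differ from each other was not tested. In all, 21 members were called lower in Tfh5 than in TfhA and lower in TfhA than in Th1, and 6.43% of all tested genes had that pattern. A further 5 members (Gbp2, Gbp7, Gbp9, Psmb8 and Psmb10) were lower in Tfh5 than in both other groups and were not called between TfhA and Th1. Gbp3, Irgm1 and Tgtp1 showed the other arrangement, lower in Tfh5 and in TfhA than in Th1 and not called between Tfh5 and TfhA. Tapbp was called only for TfhA against Th1. Irf8, Tgtp2 and Ifi47 had levels that were higher in Tfh5 than in TfhA. Libraries of Tfh5 lay below all those of TfhA for 23 members and above them for 3, where 23.4% and 20.8% of all genes did so. Libraries of TfhA lay below all those of Th1 for 29 members (18.7% of all genes) and above them for 0 (19.3% of all genes). Libraries of Tfh5 lay below all those of Th1 for 30 members (26.5% of all genes) and above them for 1 (23.7% of all genes).

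**Figure D2:**
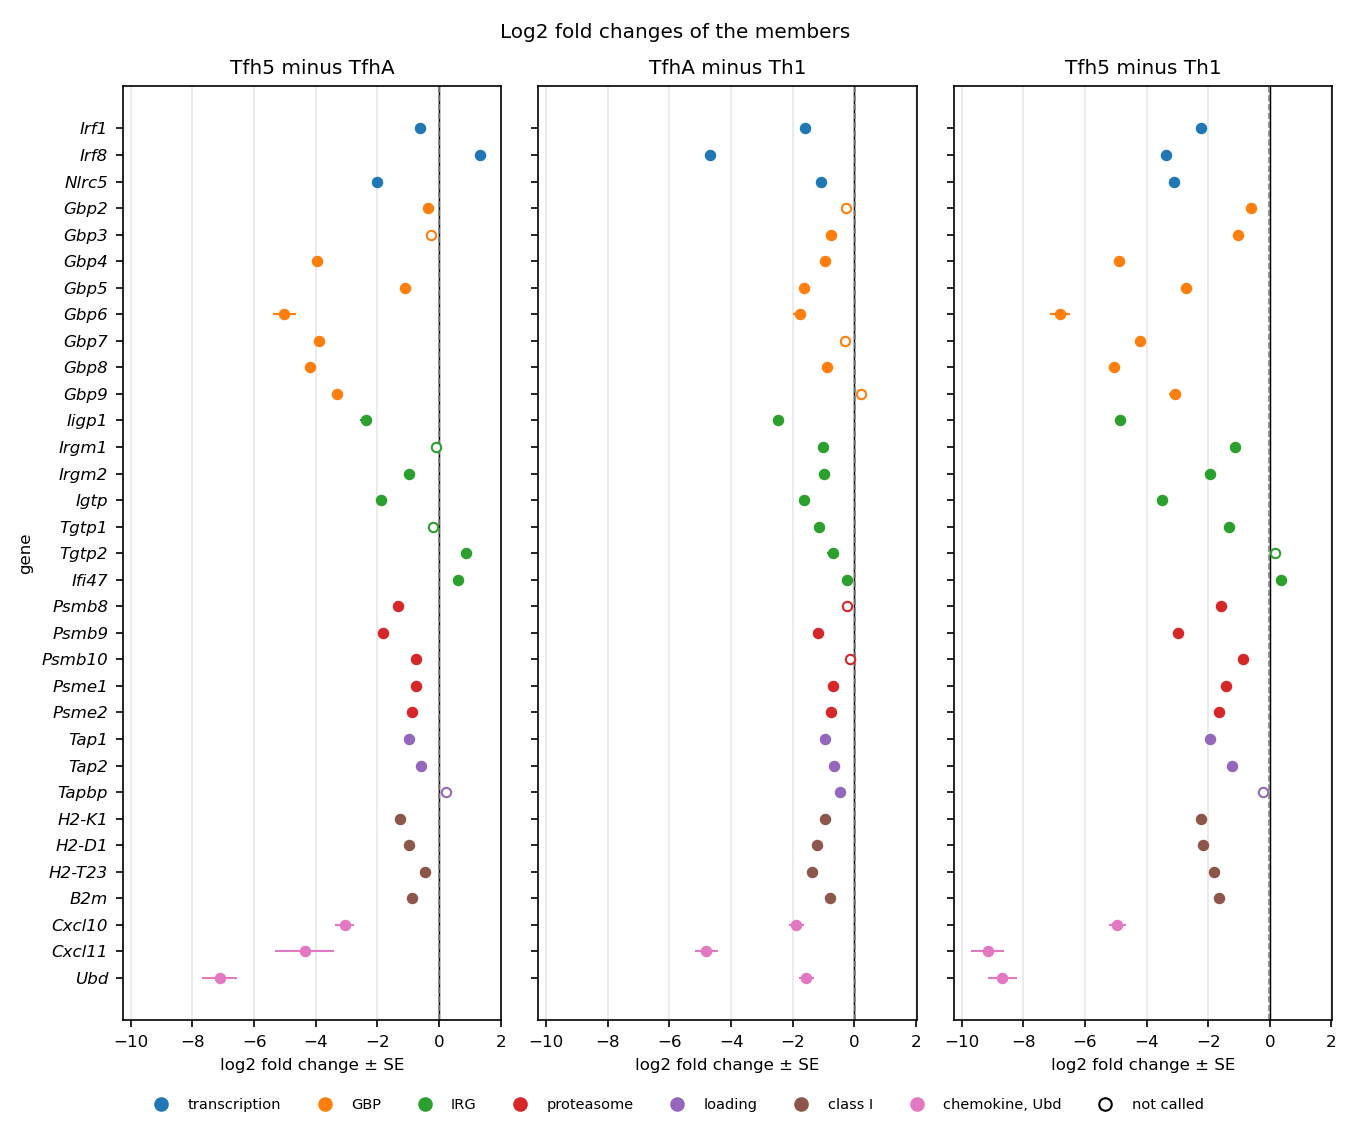
Log2 fold change ± SE (edgeR) of the 33 tested members in each comparison, coloured by role, with open circles for members that were not called and a dashed line at the median of all genes. The chemokine genes, Ubd and most GBP genes lie furthest to the left in the panel of Tfh5 minus TfhA, and Irf8, Tgtp2 and Ifi47 are the called members right of 0 there. Values of Cxcl11 and Ubd in Tfh5 rest on 1 count each.

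Irf1 and Nlrc5 were lowest in Tfh5, whereas Irf8 was lowest in TfhA. Irf1, the transcription factor that carries the second wave of interferon-γ responses, had 42.7, 45.2, 44.7, 44.9 and 50.7 CPM in Tfh5, against 67.0, 76.5, 73.3 and 65.5 CPM in TfhA and 254, 199, 199, 198 and 216 CPM in Th1. The groups did not overlap, and Irf1 was lower in Tfh5 than in TfhA (log2 fold change -0.63 ± 0.10, adjusted p = 4.25e-06) and lower in TfhA than in Th1 (log2 fold change -1.60 ± 0.10, adjusted p = 9.92e-13). Nlrc5, the transactivator of class I genes, had 28.5, 29.2, 31.7, 29.0 and 37.4 CPM in Tfh5, against 127, 112, 150.2 and 118 CPM in TfhA and 296, 261, 264, 287 and 241 CPM in Th1. Again no group reached another: the Tfh5 level was 4.05-fold lower than that of TfhA (log2 fold change -2.02 ± 0.11, adjusted p = 1.26e-14), and that of TfhA was 2.13-fold lower than in Th1 (log2 fold change -1.09 ± 0.10, adjusted p = 3.14e-09). Irf8, a factor of the same family as Irf1 that is also central to dendritic and B cell development, had 31.5, 28.0, 34.3, 31.2 and 29.7 CPM in Tfh5, against 12.1, 15.2, 13.3 and 8.70 CPM in TfhA and 408, 306, 297, 300.0 and 296 CPM in Th1. Its lowest libraries were those of TfhA, with Tfh5 2.50-fold higher (log2 fold change 1.32 ± 0.14, adjusted p = 5.13e-09) and no overlap, while Th1 libraries exceeded both groups (Tfh5 minus Th1 log2 fold change -3.38 ± 0.12, adjusted p = 1.73e-18). Replicate 1 of Th1 was the highest library for all 3 regulators.

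Promoter letters are shown for the regulators because interferon-γ signalling is known to act through GAS and ISRE sites. RefSeq windows of 250 bases before to 50 bases after the transcript start (GRCm38.p6) were at hand for 26 of the 34 members, and were searched on both strands for the GAS letters TTCNNNGAA and the ISRE core (GAAA, any 2 bases, GAAA). The windows of Irf1 and Irf8 held GAS matches, in capitals, and no ISRE core, and no window was at hand for Nlrc5. That of Irf1 is shown at chr11:53769909-53769947, plus strand, and that of Irf8, with a pair of matches, at chr8:120736172-120736228, plus strand.
Irf1: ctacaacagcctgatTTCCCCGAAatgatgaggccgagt
Irf8: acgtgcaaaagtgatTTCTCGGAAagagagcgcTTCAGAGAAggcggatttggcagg
Each is read along the gene's own strand, and a match describes the letters only. Over all genes with a window, 9.55% of 27025 had a GAS match, against 9 of 26 members (34.6%). An ISRE core was found in 3.99% of all genes with a window and in 13 of 26 members (50% of them). Both motifs in one window occurred for 0.54% of all genes and for 6 members (23.1%), namely Gbp5, Gbp7, Irgm2, Igtp, Tgtp1 and Tgtp2. The other searched motifs were nearer to the background: ATTGG, the Y box of class I and class II promoters, was in 53.8% of members and 41.1% of all genes, and the κB-like letters (GGG, any 5 bases, CC) in 65.4% and 53.5%.

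**Figure D3:**
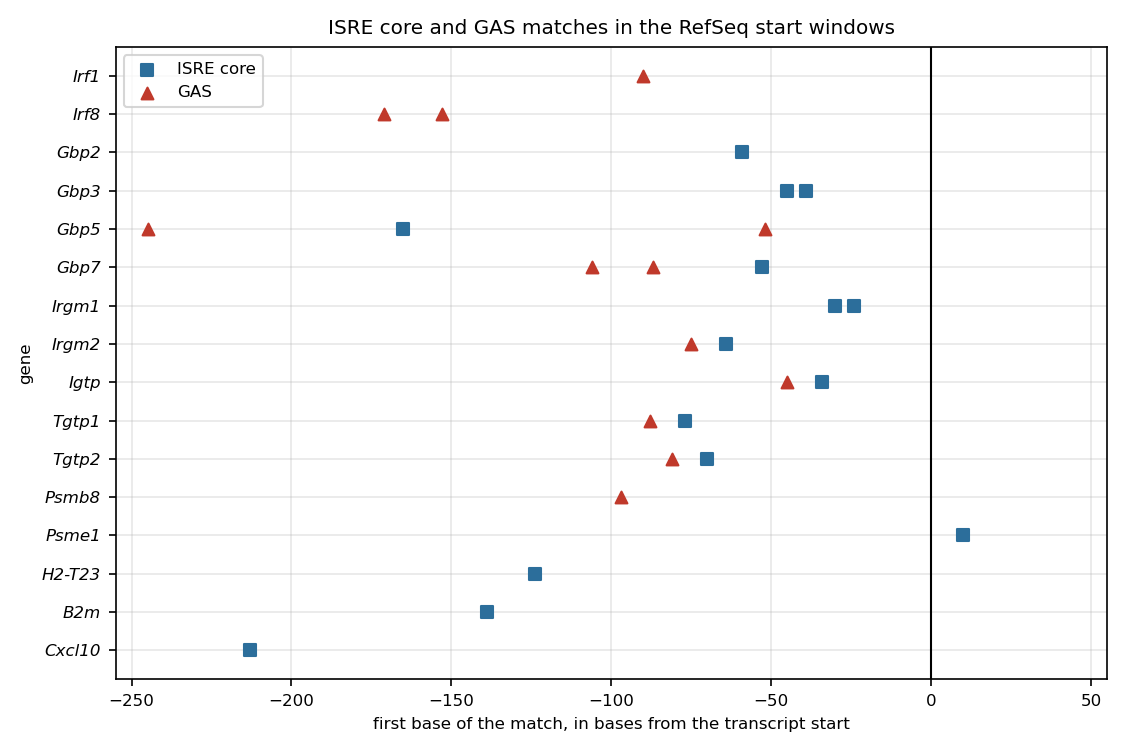
Position of each ISRE core match (squares) and GAS match (triangles) in the RefSeq windows of the 16 members with either, as bases from the transcript start at 0. Except for Psme1, whose match follows the start, all matches lie before it, and in Irgm2, Igtp, Tgtp1 and Tgtp2 a GAS match stands just before the ISRE core.

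Guanylate-binding proteins are large GTPases that coat pathogen vacuoles and cytosolic bacteria, and their genes ranged from strongly lower in Tfh5 to not called. Of the 8, 7 were called lower in Tfh5 than in TfhA, with a median log2 fold change of -3.59, and Gbp3 was not called. In that comparison, 30.1% of all genes were called lower. Gbp4 had 10.9, 9.38, 6.23, 11.1 and 5.01 CPM in Tfh5, against 126, 103, 150.1 and 143 CPM in TfhA and 214, 266, 277, 244 and 255 CPM in Th1. Tfh5 libraries were 15.4-fold lower than TfhA libraries (log2 fold change -3.95 ± 0.17, adjusted p = 6.74e-16), whereas TfhA was 1.93-fold lower than Th1 (log2 fold change -0.95 ± 0.15, adjusted p = 1.12e-05). Gbp8 followed the same course, with 1.90, 1.63, 2.26, 1.71 and 1.64 CPM in Tfh5, against 33.0, 27.0, 33.8 and 38.8 CPM in TfhA and 52.8, 61.4, 62.5, 61.2 and 71.1 CPM in Th1. Its log2 fold change was -4.17 ± 0.16 between Tfh5 and TfhA and -0.90 ± 0.12 between TfhA and Th1 (adjusted p = 1.33e-17 and 1.01e-06). Per kilobase of exon, Gbp6 was the lowest of the 8 in Tfh5 and TfhA. It had 0.190, 0.408, 0.377, 0 and 0 CPM in Tfh5, against 6.21, 5.46, 7.58 and 5.94 CPM in TfhA and 19.2, 23.1, 20.6, 18.9 and 26.6 CPM in Th1. In Tfh5 it rested on 2, 4, 4, 0 and 0 counts, and its log2 fold change against TfhA was -5.02 ± 0.37 (adjusted p = 1.01e-11).

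Gbp7 and Gbp9 were called lower in Tfh5 than in both other groups and were not called between those. Gbp7 had 9.997, 8.06, 5.94, 7.21 and 5.38 CPM in Tfh5, against 104, 76.0, 129.7 and 118 CPM in TfhA and 104, 144, 154, 136 and 131 CPM in Th1. Its log2 fold change was -3.88 ± 0.17 for Tfh5 minus TfhA (adjusted p = 3.82e-16) and -0.32 ± 0.14 for TfhA minus Th1 (adjusted p = 0.0707). The second was called without replicate 1 of Th1, 4 of TfhA or 1 of Tfh5 (0.0243, 0.0278 and 0.0439), and when only TfhA and Th1 were fitted (0.0479). Gbp9 was 9.84-fold lower in Tfh5 than in TfhA (log2 fold change -3.30 ± 0.17, adjusted p = 8.92e-15), and its fold change between TfhA and Th1 was positive and not called (log2 fold change 0.21 ± 0.14, adjusted p = 0.252). Gbp5, whose product is known to promote inflammasome assembly, instead stepped down in both comparisons (-1.09 ± 0.10 for Tfh5 minus TfhA and -1.62 ± 0.10 for TfhA minus Th1).

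Gbp2 was the most abundant GBP transcript per kilobase in every group (346 CPM per kb in Tfh5, 437 in TfhA and 531 in Th1). It had 1144, 671, 1006, 937 and 595 CPM in Tfh5, against 1132, 1091, 1135 and 1044 CPM in TfhA and 1336, 1435, 1357, 1197 and 1355 CPM in Th1. Its libraries in Tfh5 were spread and overlapped those of TfhA, and the change of -0.34 ± 0.13 (adjusted p = 0.0311) was lost when replicate 2 or replicate 5 of Tfh5 (adjusted p = 0.104 and 0.105) or replicate 1, 2 or 4 of TfhA was left out (0.0661, 0.0584 and 0.0659). Between TfhA and Th1 it was not called (log2 fold change -0.28 ± 0.13, adjusted p = 0.0896), and was called without replicate 1 or 5 of Tfh5 in the fit (0.0466 and 0.0437) and when only TfhA and Th1 were fitted (0.00653). Gbp3 had 21.4 to 40.2 CPM in Tfh5, 31.0 to 41.3 CPM in TfhA and 51.8 to 71.8 CPM in Th1, with log2 fold change -0.27 ± 0.15, adjusted p = 0.121 for Tfh5 minus TfhA, which was called without replicate 4 of Tfh5 (adjusted p = 0.0284). Gbp4, Gbp6, Gbp8 and Gbp9 lie in one cluster on chromosome 5 (105012513 to 105295871 in GRCm38.p6, as for the positions that follow) and are close copies of one another, so reads may be split among them in a way that depends on unstated counting settings. Summed with the neighbouring copies Gbp10 and Gbp11, they gave log2 fold changes of -3.93 ± 0.14, adjusted p = 2.36e-18 for Tfh5 minus TfhA and -0.86 ± 0.12, adjusted p = 2.42e-06 for TfhA minus Th1. Gbp2, Gbp3, Gbp5 and Gbp7 lie together on chromosome 3 (142496934 to 142638008).

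The chromosome 3 genes have windows, and Gbp2, Gbp3 and Gbp7 are shown because their promoters lie in one cluster while their log2 fold changes for Tfh5 minus TfhA were -0.34 ± 0.13, -0.27 ± 0.15 and -3.88 ± 0.17. Capitals mark ISRE cores (here on the opposite strand, so TTTC, any 2 bases, TTTC) and GAS matches, at chr3:142620589-142620628, plus strand, at chr3:142559984-142560029, plus strand and at chr3:142530215-142530307, plus strand.
Gbp2: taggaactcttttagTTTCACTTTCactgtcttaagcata
Gbp3: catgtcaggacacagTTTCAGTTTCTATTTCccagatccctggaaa
Gbp7: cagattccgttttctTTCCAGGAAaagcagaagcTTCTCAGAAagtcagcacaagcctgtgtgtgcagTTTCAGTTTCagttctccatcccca
Gbp2 has a single ISRE core, Gbp3 a pair that overlap, and Gbp7 an ISRE core preceded by a pair of GAS matches. Gbp5, in the same cluster but not shown, also has both motifs, an ISRE core with a GAS match on either side. Its log2 fold change for Tfh5 minus TfhA was -1.09 ± 0.10, smaller in size than that of Gbp7. Whether the matches bear on the fold changes was not tested. No window was at hand for Gbp4, Gbp6, Gbp8 or Gbp9.

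**Figure D4:**
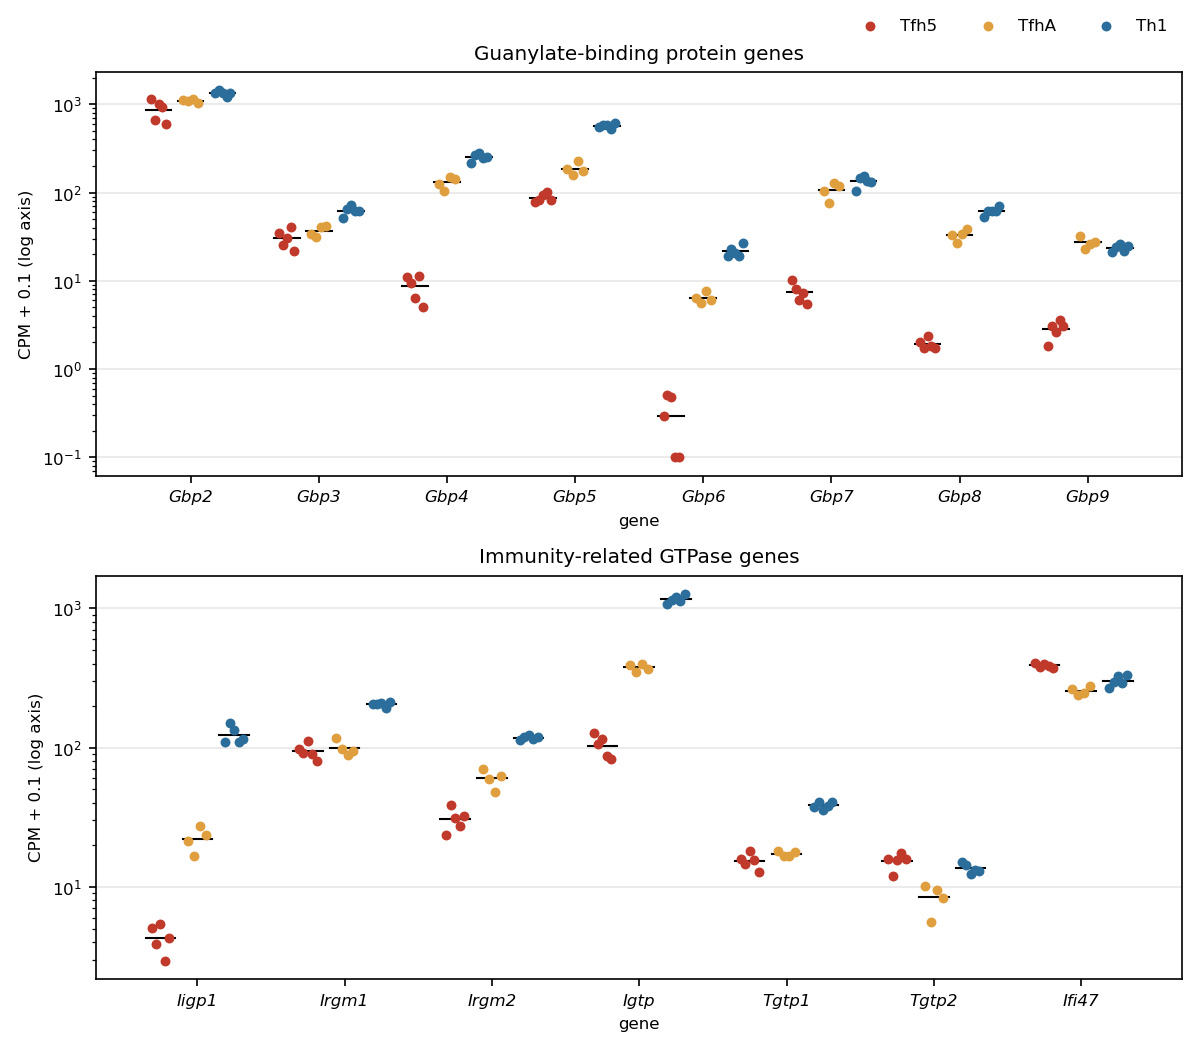
Level of each GBP gene (upper panel) and IRG gene (lower panel) in every library, as CPM + 0.1 on a log axis, with Tfh5 left, TfhA middle and Th1 right for each gene and a bar at the mean. Tfh5 points for Gbp4, Gbp6, Gbp7, Gbp8 and Gbp9 lie far below both other groups, and those for Ifi47 lie above both.

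Immunity-related GTPases fall into effectors that load onto pathogen vacuoles (Iigp1, Tgtp1, Tgtp2 and Ifi47) and regulators that keep them off the cell's own membranes (Irgm1, Irgm2 and Igtp). Between Tfh5 and TfhA 3 of the 7 were called lower, 2 higher and 2 neither, where 30.1% of all genes were lower and 27.5% higher, and 1 of the 2 higher, Tgtp2, is a near-identical copy of Tgtp1. Iigp1 had 4.95, 3.77, 5.28, 2.85 and 4.18 CPM in Tfh5, against 21.4, 16.6, 27.1 and 23.5 CPM in TfhA and 109, 149.8, 134, 109.5 and 116 CPM in Th1. The groups did not overlap, with log2 fold changes of -2.38 ± 0.17 for Tfh5 minus TfhA (adjusted p = 3.59e-12) and -2.49 ± 0.15 for TfhA minus Th1 (adjusted p = 3.71e-13). Igtp, per kilobase the most abundant IRG transcript in Th1, had 126, 106, 115, 86.5 and 82.4 CPM in Tfh5, against 391, 349.7, 399 and 368 CPM in TfhA and 1077, 1149.7, 1201, 1131 and 1266 CPM in Th1. No library of one group reached another, at -1.87 ± 0.11 for Tfh5 minus TfhA and -1.63 ± 0.11 for TfhA minus Th1 (adjusted p = 7.26e-14 and 5.17e-12). Irgm2 had 23.3, 38.5, 31.0, 27.3 and 31.9 CPM in Tfh5, against 69.8, 59.1, 48.2 and 62.8 CPM in TfhA and 113, 119, 122, 116 and 118 CPM in Th1. Both steps were close to 2-fold, 1.97-fold lower in Tfh5 than in TfhA and 1.96-fold lower in TfhA than in Th1 (adjusted p = 1.17e-07 and 2.57e-07).

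Ifi47, Tgtp2, Tgtp1 and Irgm1 lie together on chromosome 11 (48865245 to 49096987) and did not share this order. Ifi47 had 404, 381, 398, 388 and 371 CPM in Tfh5, against 262, 239, 245 and 274 CPM in TfhA and 267, 294, 324, 289.6 and 333 CPM in Th1. It was 1.52-fold higher in Tfh5 than in TfhA (log2 fold change 0.61 ± 0.09, adjusted p = 1.22e-06) and 1.29-fold higher than in Th1 (log2 fold change 0.37 ± 0.08, adjusted p = 0.000288), without overlap in either. Its change between TfhA and Th1 (log2 fold change -0.24 ± 0.09, adjusted p = 0.0246) passed narrowly and was lost without replicate 3 or 5 of Th1 (adjusted p = 0.0614 and 0.0689) or replicate 2 or 4 of TfhA (0.0721 and 0.0538), with library totals only (0.0725) or with the replicate block (0.059). Tgtp2 had 11.9 to 17.3 CPM in Tfh5, 5.46 to 9.999 CPM in TfhA and 12.3 to 15.1 CPM in Th1, higher in Tfh5 than in TfhA (log2 fold change 0.88 ± 0.17, adjusted p = 0.000104), and Tgtp1 had 12.7 to 17.8 CPM in Tfh5, 16.5 to 18.0 CPM in TfhA and 35.2 to 40.8 CPM in Th1, not called in that comparison (adjusted p = 0.228). Those genes are near-identical copies, and their sum was not called between Tfh5 and TfhA (log2 fold change 0.26 ± 0.11, adjusted p = 0.0512), so the higher level of Tgtp2 is uncertain. Irgm1 had 80.3 to 111 CPM in Tfh5, 88.8 to 117 CPM in TfhA and 193 to 211 CPM in Th1, with a log2 fold change of -0.09 ± 0.10 between Tfh5 and TfhA (adjusted p = 0.472) and -1.03 ± 0.10 between TfhA and Th1 (adjusted p = 4.6e-09).

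The promoters of Igtp, Irgm2, Tgtp1 and Tgtp2 are shown because they share one arrangement, a GAS match, then 2 bases, then an ISRE core (both in capitals), while the genes differed in their levels. The positions are chr11:58199496-58199546, plus strand for Igtp, chr11:58214887-58214937, plus strand for Irgm2, chr11:48992299-48992349, minus strand for Tgtp1 and chr11:49064258-49064308, minus strand for Tgtp2.
Igtp: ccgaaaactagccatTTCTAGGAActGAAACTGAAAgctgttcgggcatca
Irgm2: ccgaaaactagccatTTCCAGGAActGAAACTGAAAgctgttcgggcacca
Tgtp1: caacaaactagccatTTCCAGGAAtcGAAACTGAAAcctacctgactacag
Tgtp2: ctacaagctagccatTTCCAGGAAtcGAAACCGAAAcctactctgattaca
Compared base by base without gaps, Igtp and Irgm2, which are neighbours on chromosome 11, were 96.1% identical over these 51 bases. Tgtp1 and Tgtp2 were 76.5% identical, and the other pairs 66.7% to 70.6%. Without gaps, an extra base shifts all bases after it, as behind the ISRE core of Tgtp2, and lowers the value. The stretches were placed by their matches, so part of the identity follows from that choice. The fold changes of Igtp and Irgm2 between Tfh5 and TfhA were -1.87 ± 0.11 and -0.98 ± 0.12. The window of Ifi47 held no match to any of the 4 motifs searched. No window was at hand for Iigp1.

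Under interferon-γ the catalytic subunits Psmb8, Psmb9 and Psmb10 replace the constitutive subunits Psmb5, Psmb6 and Psmb7 in the immunoproteasome, and Psme1 and Psme2 form its activator cap. All 5 were called lower in Tfh5 than in TfhA, and 3 of the 5 lower in TfhA than in Th1. The shares of all genes called lower were 30.1% and 21.6% in the same order. Psmb9 had 23.6, 23.8, 29.4, 26.0 and 24.6 CPM in Tfh5, against 94.6, 97.9, 91.5 and 73.2 CPM in TfhA and 259.5, 202, 188, 173 and 191 CPM in Th1. It fell in both steps, by 3.51-fold in Tfh5 against TfhA (log2 fold change -1.81 ± 0.12, adjusted p = 8.79e-13) and by 2.27-fold in TfhA against Th1 (log2 fold change -1.18 ± 0.11, adjusted p = 4.66e-09). Psmb8 had 194, 229, 211, 170.2 and 170.4 CPM in Tfh5, against 512, 500.2, 498 and 457 CPM in TfhA and 600.3, 526, 549, 527 and 684 CPM in Th1. Its fall was found in Tfh5 (log2 fold change -1.34 ± 0.10, adjusted p = 1.58e-11 against TfhA), whereas the TfhA libraries lay just below those of Th1 and that difference was not called (log2 fold change -0.23 ± 0.10, adjusted p = 0.0635). It was called without replicate 2 or 4 of Th1 (0.0491 each), with no low-count filter (0.0378), with DESeq2 (0.0423) and when only those groups were fitted (0.0308). Psme2 had 25.7, 23.5, 27.2, 25.5 and 20.4 CPM in Tfh5, against 45.0, 47.5, 40.1 and 48.5 CPM in TfhA and 80.7, 70.6, 72.4, 62.6 and 96.4 CPM in Th1. The steps were -0.89 ± 0.12 and -0.76 ± 0.12 (adjusted p = 6.95e-07 and 1.16e-05), and those of Psme1 were -0.74 ± 0.09 and -0.68 ± 0.09. Psmb10 had 28.1 to 37.5 CPM in Tfh5, 43.8 to 63.8 CPM in TfhA and 50.4 to 84.4 CPM in Th1, where the highest value of Th1, in replicate 1, stood apart. Its log2 fold change was -0.73 ± 0.14 for Tfh5 minus TfhA (adjusted p = 6.41e-05) and -0.14 ± 0.14 for TfhA minus Th1 (adjusted p = 0.431), the second being 0.01 without that library.

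Constitutive proteasome genes also fell in Tfh5, so the inducible subunits were set against their counterparts within each library. Of 16 constitutive subunit and activator genes, 14 were called lower in Tfh5 than in TfhA and 1 higher, with a median log2 fold change of -0.44. Between TfhA and Th1, 0 were called lower and 5 higher. Among all genes, 30.1% were lower and 27.5% higher in the first comparison, and 21.6% lower and 23.1% higher in the second. Psma7, a structural subunit, had 169 to 209.5 CPM in Tfh5, 325 to 373 CPM in TfhA and 259 to 304 CPM in Th1 (-0.81 ± 0.09 for Tfh5 minus TfhA), and Psma3, another, 12.2 to 19.7 CPM in Tfh5, 30.3 to 34.1 CPM in TfhA and 20.6 to 31.6 CPM in Th1 (-1.01 ± 0.15). Psmb5 had 6.79 to 9.43 CPM in Tfh5, 10.9 to 14.8 CPM in TfhA and 11.6 to 17.3 CPM in Th1 (-0.74 ± 0.17).

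The ratio of Psmb9 to Psmb6 in CPM was 0.654, 0.647, 0.836, 0.811 and 0.608 in Tfh5, against 2.01, 1.59, 1.68 and 1.66 in TfhA and 3.38, 3.53, 3.64, 3.18 and 3.82 in Th1. No group overlapped another, and the log2 ratio differed by -1.29, adjusted p = 0.0179 for Tfh5 minus TfhA and by -1.02, adjusted p = 0.0179 for TfhA minus Th1 (exact permutation test, two-sided, adjusted over 9 tests, with 0.00794 the smallest unadjusted p these groups allow). The ratio of Psmb8 to Psmb5 was 20.6, 33.5, 31.0, 18.7 and 20.2 in Tfh5, against 34.8, 33.7, 36.2 and 41.8 in TfhA and 37.3, 30.3, 39.3, 45.5 and 52.3 in Th1. Tfh5 and Th1 differed by -0.74, adjusted p = 0.0429 (the same exact test) although their libraries overlapped, and Tfh5 and TfhA differed by -0.60, adjusted p = 0.051, which missed the threshold. With 1 library left out, the first was lost without replicate 1, 3, 4 or 5 of Th1 (adjusted p up to 0.0714), and the second was gained without replicate 2 of TfhA or any 1 of Tfh5 (0.0476 or less). The difference of Psmb9 over Psmb6 between TfhA and Th1 missed the threshold without any 1 library of Th1 (0.0643 or less), since smaller groups raise the smallest p that can be had. The ratio of Psmb10 to Psmb7 was 0.314, 0.372, 0.305, 0.334 and 0.297 in Tfh5, against 0.369, 0.418, 0.375 and 0.277 in TfhA and 0.726, 0.421, 0.446, 0.469 and 0.411 in Th1. Its difference was -0.58, adjusted p = 0.0179 for Tfh5 minus Th1 and -0.14, adjusted p = 0.339 for Tfh5 minus TfhA (exact tests). For TfhA minus Th1 it was -0.44, adjusted p = 0.051 (exact test), and was called without replicate 2 of TfhA (0.0459). These are ratios of transcript counts and not of protein.

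**Figure D5:**
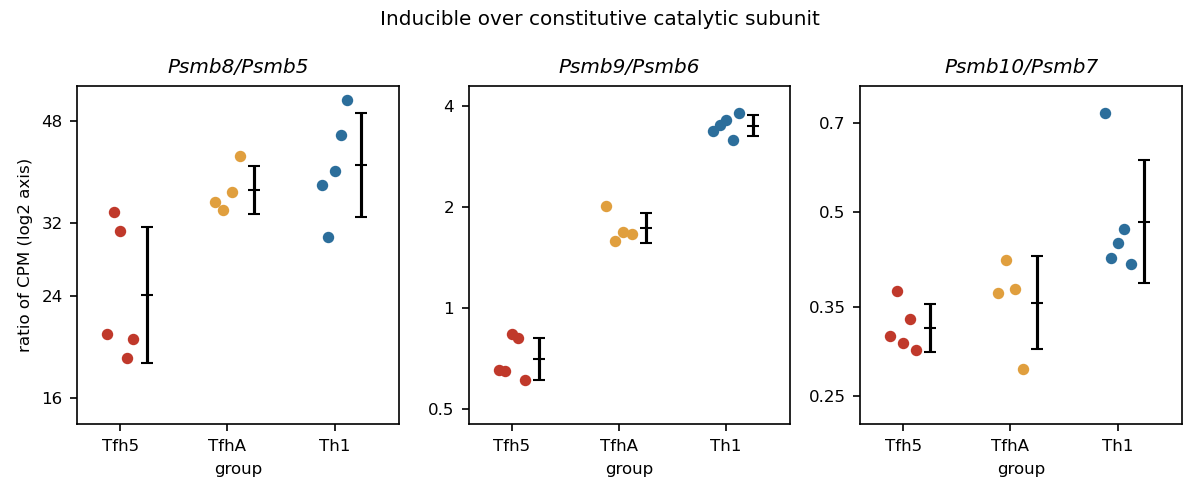
Ratio of each inducible catalytic subunit to its constitutive counterpart, in CPM on a log2 axis, for every library of Tfh5, TfhA and Th1, with the geometric mean ± SD (of log2 ratios) beside the points. The groups are fully separate for Psmb9 over Psmb6, and replicate 1 of Th1 (0.726) stands above the rest for Psmb10 over Psmb7.

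The transporter genes were lower at both steps, whereas Tapbp was not called lower in Tfh5 in either comparison. Tap1, which with Tap2 forms the peptide transporter of the endoplasmic reticulum, had 116, 78.5, 99.2, 90.4 and 76.9 CPM in Tfh5, against 203, 165, 219 and 137 CPM in TfhA and 429.6, 362, 333, 305 and 339 CPM in Th1. It was 1.97-fold lower in Tfh5 than in TfhA (log2 fold change -0.98 ± 0.13, adjusted p = 5.31e-07) and 1.95-fold lower in TfhA than in Th1 (log2 fold change -0.96 ± 0.13, adjusted p = 1.58e-06). Tap2 had 28.3, 27.9, 27.1, 25.5 and 38.7 CPM in Tfh5, against 39.1, 46.8, 54.9 and 37.6 CPM in TfhA and 92.5, 72.0, 61.8, 60.4 and 62.8 CPM in Th1. Replicate 5 of Tfh5 overlapped TfhA, and the changes were -0.59 ± 0.14 and -0.65 ± 0.14 (adjusted p = 0.00105 and 0.000557). Tapbp, which encodes tapasin, the bridge between the transporter and the class I molecule, had 213, 171, 159, 149 and 199 CPM in Tfh5, against 146, 144, 176 and 138 CPM in TfhA and 261, 209, 179, 189.9 and 201 CPM in Th1. The libraries of Tfh5 overlapped both other groups, with log2 fold change 0.24 ± 0.12, adjusted p = 0.0841 against TfhA and log2 fold change -0.22 ± 0.11, adjusted p = 0.0763 against Th1. Only its difference between TfhA and Th1 was called (log2 fold change -0.46 ± 0.12, adjusted p = 0.00222). The others were narrow: it was called higher in Tfh5 than in TfhA without replicate 1 of Th1, 4 of TfhA or 4 of Tfh5 (adjusted p = 0.0452, 0.0335 and 0.0341), with the replicate block (0.048) or with mitochondrial genes left out (0.0496). It was called lower than in Th1 without replicate 3 of Th1 or 1 or 5 of Tfh5 (0.0434, 0.02 and 0.0495) or with no low-count filter (0.0448). Tapbp, Tap1, Tap2, Psmb8, Psmb9 and H2-K1 lie within one stretch of chromosome 17 (33919478 to 34216321).

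All 4 genes for class I chains were called lower in Tfh5 than in TfhA and lower in TfhA than in Th1, without overlap between groups. Of all genes, 30.1% were called lower in the first comparison and 21.6% in the second. H2-K1, a classical heavy chain, had 298, 286, 285, 279.9 and 287 CPM in Tfh5, against 766, 671, 771 and 560.4 CPM in TfhA and 1642, 1354, 1195, 1219.9 and 1316 CPM in Th1. The steps were -1.27 ± 0.10 and -0.96 ± 0.10 (adjusted p = 5.72e-11 and 3.38e-08). H2-D1, the other classical heavy chain in this strain, had 53.0, 56.7, 54.3, 56.4 and 66.5 CPM in Tfh5, against 102, 124, 122 and 99.5 CPM in TfhA and 363, 249, 233, 235 and 223 CPM in Th1. Its log2 fold changes were -0.96 ± 0.12 and -1.22 ± 0.12 (adjusted p = 2.46e-07 and 1.16e-08). These chains share much sequence, and their summed counts gave -1.22 ± 0.10, adjusted p = 1.23e-10 for Tfh5 minus TfhA. H2-T23, a non-classical chain that presents leader peptides to receptors of NK and T cells, had 58.9, 63.4, 74.0, 70.3 and 57.1 CPM in Tfh5, against 83.7, 101, 89.7 and 76.6 CPM in TfhA and 305, 221, 205, 197 and 198 CPM in Th1. Its log2 fold changes were -0.44 ± 0.12 for Tfh5 minus TfhA and -1.36 ± 0.12 for TfhA minus Th1 (adjusted p = 0.00339 and 1.67e-09). B2m, the light chain common to all of them, had 3432, 3033, 2926, 2929.5 and 2592 CPM in Tfh5, against 5844, 4795, 4683 and 6264 CPM in TfhA and 8036, 9931, 9401, 9039 and 10397 CPM in Th1. It was the most abundant member per kilobase in every group, with 3468 CPM per kb in Tfh5, 6275 in TfhA and 10884 in Th1, and fell by 1.81-fold in Tfh5 against TfhA (log2 fold change -0.86 ± 0.11, adjusted p = 1.73e-07). Replicate 1 of Th1 was highest for each heavy chain and lowest in Th1 for B2m.

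B2m and H2-T23 are the class I chain genes whose windows held an ISRE core, at chr2:122147533-122147572, plus strand and chr17:36032801-36032840, minus strand. They are shown beside each other because both carry the core (capitals, on opposite strands) while the windows of H2-K1 and H2-D1, which also fell in Tfh5, had none.
B2m: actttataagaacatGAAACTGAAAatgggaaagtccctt
H2-T23: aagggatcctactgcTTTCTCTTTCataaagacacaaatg
The windows of all 4 genes held an ATTGG match. No match says only that the letters are not in that window.

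Chemokines of the receptor CXCR3, which draws Th1 cells to inflamed tissue, and Ubd were all lowest in Tfh5 or absent from its counts. Cxcl10 had 0.476, 0.510, 0.849, 1.90 and 0.673 CPM in Tfh5, against 9.77, 4.61, 8.44 and 6.79 CPM in TfhA and 23.6, 26.4, 33.5, 20.7 and 32.9 CPM in Th1. The groups did not overlap, with log2 fold change -3.06 ± 0.31, adjusted p = 3.06e-09 for Tfh5 minus TfhA and log2 fold change -1.88 ± 0.23, adjusted p = 2.25e-07 for TfhA minus Th1. Cxcl11, which RefSeq lists as a transcribed pseudogene in this strain, had 0, 0, 0.0944, 0 and 0 CPM in Tfh5, against 0.606, 0.427, 1.30 and 0 CPM in TfhA and 14.1, 11.7, 18.0, 17.1 and 20.9 CPM in Th1. With 1 count in all of Tfh5, against 25 in TfhA and 1153 in Th1, its level was 31.5-fold lower in Tfh5 than in TfhA (95% counting interval 5.15 to 1291) and 887-fold lower than in Th1 (159 to 35081). Replicate 5 of TfhA also had no count. Ubd, a ubiquitin-like modifier that targets proteins to the proteasome, had 0.0952, 0, 0, 0 and 0 CPM in Tfh5, against 4.47, 3.07, 5.30 and 3.08 CPM in TfhA and 10.4, 15.6, 11.4, 7.70 and 13.7 CPM in Th1. Its 1 count in Tfh5, against 173 in TfhA and 833 in Th1, gave a level 218-fold lower than in TfhA (38.5 to 8645) and 641-fold lower than in Th1 (115 to 25353). Between TfhA and Th1 the log2 fold changes were -4.80 ± 0.37 for Cxcl11 and -1.56 ± 0.25 for Ubd (adjusted p = 6.88e-11 and 1.22e-05). That of Cxcl11 was -5.41 without replicate 4 of TfhA, which held 12 of its 25 counts there. Cxcl9 had no count in Tfh5 or TfhA and 17 counts over the Th1 libraries, 8 of them in replicate 3. A count of 0 allows up to 3 counts per group. With the 17 counts of Th1 taken as exact, that limit put Cxcl9 at least 4.36-fold lower in Tfh5 and 3.47-fold lower in TfhA. The intervals cover counting error only, and these floors cover only that of the count of 0.

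As a share of all counts, the members held 0.533% to 0.686% in Tfh5, 1.01% to 1.13% in TfhA and 1.75% to 1.96% in Th1. Without B2m the shares were 0.272% to 0.343%, 0.477% to 0.574% and 0.867% to 1.02% in the same order of groups. Per kilobase, Psme1 and Gbp2 were among the 5 most abundant members in each group, and Ifi47 was among the first 5 in Tfh5 (207 CPM per kb). The median coefficient of variation over members with at least 1 CPM was 12.2% in Tfh5, 14.3% in TfhA and 11.6% in Th1, over 29, 32 and 33 members.

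Upstream of these genes, the ligand was lower in Tfh5 than in TfhA and both receptor chains were higher. Ifng, the interferon-γ gene, had 1.33, 0.510, 0.755, 0.664 and 0.897 CPM in Tfh5, against 17.5, 8.45, 31.2 and 12.1 CPM in TfhA and 493, 666, 627, 708 and 623 CPM in Th1. Its log2 fold change was -4.34 ± 0.41 for Tfh5 minus TfhA and -5.18 ± 0.30 for TfhA minus Th1 (adjusted p = 2.81e-07 and 1.82e-09), without overlap between groups. Ifngr2, the receptor chain known to be limiting in T cells, had 161, 122, 127, 134 and 125 CPM in Tfh5, against 17.6, 18.1, 13.9 and 15.3 CPM in TfhA and 14.8, 11.7, 11.3, 10.9 and 10.2 CPM in Th1. It was 8.22-fold higher in Tfh5 than in TfhA (log2 fold change 3.04 ± 0.13, adjusted p = 1.4e-16). Ifngr1, the chain that binds the ligand, had 177 to 207 CPM in Tfh5, 143 to 154 CPM in TfhA and 184 to 217 CPM in Th1. It was higher in Tfh5 than in TfhA (log2 fold change 0.36 ± 0.08, adjusted p = 0.000748) and lower in TfhA than in Th1 (log2 fold change -0.43 ± 0.08, adjusted p = 0.000171), without overlap in either comparison. Stat2 had 45.3 to 54.1 CPM in Tfh5, 68.8 to 85.9 CPM in TfhA and 142 to 173 CPM in Th1, lower at each step (-0.65 ± 0.10 and -0.96 ± 0.10). Of the 15 signalling genes listed, 5 were lower, 7 higher and 3 not called for Tfh5 minus TfhA, with a median of 0.29. For TfhA minus Th1, 6 were lower, 3 higher and 6 not called, with a median of -0.04. Among all genes, 30.1% were lower and 27.5% higher in the first comparison, and 21.6% lower and 23.1% higher in the second.

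Other targets of interferon-γ outside the set mostly fell in Tfh5 too. Of 26 listed genes 22 were tested, and 16 were called lower, 2 higher and 4 neither in Tfh5 against TfhA, with a median of -1.41. In TfhA against Th1, 10 were called lower, 2 higher and 10 neither, with a median of -0.13. The shares of all genes were 30.1% lower and 27.5% higher in the first comparison, and 21.6% lower and 23.1% higher in the second. Gm12250, another IRG gene, had 3.71, 3.57, 4.62, 2.56 and 2.39 CPM in Tfh5, against 57.6, 53.7, 69.5 and 45.1 CPM in TfhA and 120.0, 133, 127, 115 and 136 CPM in Th1. It fell by 16.9-fold in Tfh5 against TfhA (log2 fold change -4.08 ± 0.16, adjusted p = 1.73e-17) and lies beside Igtp and Irgm2. Gbp10 had 0 to 0.285 CPM in Tfh5, 0 to 0.849 CPM in TfhA and 9.01 to 13.5 CPM in Th1, at -4.51 ± 0.42 for TfhA minus Th1 (adjusted p = 2.09e-09). Gm4951 likewise had 0 to 0.204 CPM in Tfh5, 0.341 to 1.52 CPM in TfhA and 18.1 to 23.3 CPM in Th1, at -4.67 ± 0.31 for TfhA minus Th1 (adjusted p = 3.15e-12), with 3 counts in all of Tfh5.

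Among 19 other class I and assembly genes, 17 were tested, and 11 were lower, 3 higher and 3 not called in Tfh5 against TfhA (median -0.60). In TfhA against Th1, 8 were lower, 2 higher and 7 not called (median -0.34). All genes were 30.1% lower and 27.5% higher in the first comparison, and 21.6% lower and 23.1% higher in the second. H2-Q7, a non-classical heavy chain, had 1.05, 1.33, 0.472, 0.664 and 0.448 CPM in Tfh5, against 13.0, 12.1, 15.5 and 10.4 CPM in TfhA and 36.0, 35.8, 22.6, 24.2 and 23.8 CPM in Th1. It was 16.3-fold lower in Tfh5 than in TfhA (log2 fold change -4.03 ± 0.26, adjusted p = 9.15e-13). H2-Q10, of the same gene family, had 0 to 0.306 CPM in Tfh5, 6.26 to 10.6 CPM in TfhA and 29.9 to 52.9 CPM in Th1, at -6.10 ± 0.39 and -2.36 ± 0.20 in the same order of steps. H2-Oa, which is a class II-related chain rather than a class I gene, had 5.22 to 10.1 CPM in Tfh5, 0.433 to 1.67 CPM in TfhA and 10.1 to 13.1 CPM in Th1, with its lowest level in TfhA (2.63 ± 0.29 for Tfh5 minus TfhA). The Q genes are close copies, so their separate levels are uncertain.

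Genes next to the members were called in both directions. Members fall into 8 clusters of at least 2 genes, and the 32 nearest tested genes outside these clusters were 14 lower, 7 higher and 11 not called for Tfh5 minus TfhA, with a median of -0.04, where 30.1% of all genes were lower and 27.5% higher. For TfhA minus Th1 they were 14 lower, 6 higher and 12 not called, with a median of -0.32, where 21.6% of all genes were lower and 23.1% higher. For Tfh5 minus TfhA, the neighbours with the lowest log2 fold changes were Gbp11 (-5.13 ± 0.35), a transcribed pseudogene in RefSeq, Gm12250 (-4.08 ± 0.16) and Abcg3 (-3.78 ± 0.42). The highest was that of Pdlim5, the nearest gene before the chromosome 3 GBP cluster (4.39 ± 0.14). Beside the chromosome 17 cluster, the class II genes H2-Ob (3.06 ± 0.33) and H2-Ab1 (-2.71 ± 0.17) changed in opposite directions. These neighbours were picked for mention after their values were seen.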

How the data were processed

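RNA was sequenced from 14 libraries. The authors deposited raw counts for each Entrez gene, made with STAR 2.7.2b and featureCounts 1.6.4 on mm10, per the submitters' processing notes. For annotation, strandedness and multi-mapping reads, the settings were not given in the sources used here. All 14 single-library files held the values of the series table. Symbols, positions and promoter windows come from RefSeq (GRCm38.p6), which named 25275 of 27179 genes, and exon lengths from GENCODE M21.

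Counts were fitted with edgeR 4.0.16 in R 4.3.3 (filterByExpr by group, TMM, robust quasi-likelihood F test, group means, no covariate). The SE is the fold change's size over the square root of F. The steps were tested on simulated data. Replicates differed beyond counting error (chi-square per degree of freedom 4.3 to 32.6 over 26 pairs), and the common biological coefficient of variation was 14.25%. Proteasome ratios were compared with exact permutation tests.

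Values in every library are given for up to 3 members per role that passed in a comparison and had at least 10 CPM in a group, by largest absolute log2 fold change, and up to 3 genes per pathway list likewise. Other members named with values were chosen after these were seen. The members and lists were chosen with earlier results of these data known. The values of 1 gene of the signalling list are not reported here. Alternatives were DESeq2 1.42.0 and its size factors, library totals, no filter, 2-group fits, the replicate block, thinning to 8805921 counts, mitochondrial genes left out, copies summed and each library left out.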

Additional observations from a re-analysis of the deposited data

Results flagged for a closer look

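In 9 of 100 groups of 4 or 5 libraries examined, the level of 1 library lay far from the others of its group. Chance alone would flag about 1 in 20 independent groups. These groups share libraries, and 1 count among zeros is always flagged, so the rates cannot be compared. Replicate 1 of Th1 was the high one for 4 members: Irf8 with 408 CPM (next 306), Psmb10 with 84.4 CPM (next 56.4), H2-D1 with 363 CPM (next 249) and H2-T23 with 305 CPM (next 221). Leaving that library out changed the sign of the uncalled difference of Psmb10 between TfhA and Th1 (0.01, adjusted p = 0.945).

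Replicate 5 of Tfh5 was high for Tap2, with 38.7 CPM (next 28.3), and for H2-D1, with 66.5 CPM (next 56.7). In Tfh5 replicate 4, Cxcl10 had 1.90 CPM (next 0.849). Cxcl11 had 0.0944 CPM in Tfh5 replicate 3 and Ubd 0.0952 CPM in Tfh5 replicate 1, which are 1 count each where the other 4 libraries had 0. The causes were not tested.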

How the results depend on the processing

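Across 9 settings (other scalings, no filter, DESeq2, 2-group fits, the replicate block, thinning, mitochondrial genes left out, copies summed), the members called lower numbered 22 to 26 for Tfh5 minus TfhA (26 as reported), 24 to 31 for TfhA minus Th1 (28) and 26 to 32 for Tfh5 minus Th1 (30), and those called higher 2 to 4, 0 and 1. The lowest lower counts came with copies summed, where fewer members are counted. With each of the 14 libraries left out, the lower counts were 25 to 27, 27 to 30 and 30 to 31. Of all single results for members under alternatives, 2216 kept direction and side of the threshold, 12 lost the call, 22 gained it, and 2 uncalled differences changed sign: Irgm1 for Tfh5 minus TfhA without TfhA replicate 1 (0, adjusted p = 0.999, and down to -0.15 with other libraries left out) and Psmb10 for TfhA minus Th1 without Th1 replicate 1 (0.01, and down to -0.23 with others left out). Gbp2 lost its call for Tfh5 minus TfhA when only those groups were fitted (adjusted p = 0.0622), as did Ifi47 for TfhA minus Th1 with library totals (0.0725). Fitted fold changes moved by over 1.5 times for Cxcl11 and Ubd. Their comparisons with Tfh5 rest on 1 count in Tfh5 for each gene. That of Cxcl11 for TfhA minus Th1 moved from -4.80 to -5.41 without TfhA replicate 4. Pairing of the libraries by number was not shown (13 same-number pairs, correlations -0.05 to 0.16, 1 over 0.1). The other 52 pairs ran from -0.37 to 0.33, and 5 libraries correlated best with their own number. Such values cannot exclude pairing. With the replicate block Ifi47 lost its call for TfhA minus Th1 (adjusted p = 0.059) and Tapbp gained one for Tfh5 minus TfhA (0.048). Log2 ratio differences with 1 library left out ran from -0.72 to -0.51 for Psmb8 over Psmb5 in Tfh5 minus TfhA, from -0.86 to -0.65 in Tfh5 minus Th1, from -1.09 to -0.98 for Psmb9 over Psmb6 in TfhA minus Th1 and from -0.52 to -0.29 for Psmb10 over Psmb7 there. Smaller groups raise the smallest p, and the largest adjusted p were 0.0536, 0.0714, 0.0643 and 0.161. Genes at under 1 CPM are limited by depth.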
